A study of Mus musculus with 12 samples.

Results

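Ccl19, Rpp25l, Dctn3, Fancg and Cd72 are 5 genes that lie close together on mouse chromosome 4. They were described over striatal RNA of mice with an expanded or a control Huntington's disease gene. The genes were chosen by their measured difference between Q111 and Q20 mice and by their position, and each was found through probe sets that carry its symbol alone. All 5 were among the 16721 genes tested, of 19938 genes with a probe set. The 4 groups of 3 arrays each came from striatum of 90-day-old males. They were homozygous HdhQ111/Q111 mice that were mGluR5-/-, homozygous HdhQ111/Q111 mice that were mGluR5+/+, homozygous HdhQ20/Q20 mice that were mGluR5-/- and homozygous HdhQ20/Q20 mice that were mGluR5+/+. Hdh is the older name of Htt, the mouse huntingtin gene, and Q gives the length of its glutamine stretch. mGluR5 is the glutamate receptor encoded by Grm5. All mice therefore carried a knock-in allele on both chromosomes, and every group shared the mixed background of 129, CD-1, C57BL/6 and FV strains. In such a background, strain alleles on chromosome 4 and the Q111 allele cannot be told apart in these data. Whether replicate arrays are separate mice is not given in the labels, so p-values measure only the spread between these samples.

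Ccl19 encodes a chemokine that binds CCR7 and guides T cells and dendritic cells into lymphoid tissue. In the mouse the locus has been duplicated and holds several copies of Ccl19-like and Ccl21 genes. Cd72 encodes an inhibitory co-receptor of B cells that binds the semaphorin Sema4d and recruits the phosphatase Ptpn6. Dctn3 is a subunit of dynactin, the partner of the dynein motor in transport along microtubules. Fancg belongs to the Fanconi anaemia core complex, which acts in the repair of DNA crosslinks. Rpp25l is related to Rpp25, a protein subunit of RNase P and RNase MRP.

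The promoters of Ccl19 and Cd72 are shown because these were the members with the largest differences, in opposite directions. RefSeq's promoter table (GRCm38.p6) matched all 5 genes, and all 5 lie on the minus strand. The 250 bases before the annotated start are printed 5′ to 3′ on the strand of the gene. They span chr4:42756366-42756615 for Ccl19 and chr4:43454627-43454876 for Cd72. Capitals mark matches on either strand to GAGGAA, a sequence that the B cell and myeloid factor PU.1 can bind.
Ccl19: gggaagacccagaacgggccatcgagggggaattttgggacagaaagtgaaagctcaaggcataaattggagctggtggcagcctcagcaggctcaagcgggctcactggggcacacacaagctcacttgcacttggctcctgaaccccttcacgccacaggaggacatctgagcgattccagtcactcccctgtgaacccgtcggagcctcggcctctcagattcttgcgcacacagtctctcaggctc
Cd72: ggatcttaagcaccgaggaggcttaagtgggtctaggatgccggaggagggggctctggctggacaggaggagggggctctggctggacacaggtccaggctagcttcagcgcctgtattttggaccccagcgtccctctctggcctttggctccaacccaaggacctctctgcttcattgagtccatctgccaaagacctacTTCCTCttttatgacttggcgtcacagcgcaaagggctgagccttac
The motif was present 1 time in Cd72, ending 41 bases before the start and read on the opposite strand, and 1 time in Dctn3, ending 224 bases before the start. The windows of Ccl19, Fancg and Rpp25l held none. Of 32851 promoters of this length, 23.25% held it. A match is a description of letters and not a binding site.

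Values are log2 signals made with RMA, so that 1 unit is a doubling. Array medians lay between 7.05 and 7.16, and the filter for tested genes, the 25th percentile of an array, lay between 5.69 and 5.94. All 9 probe sets of the 5 genes were above that percentile in all 12 arrays. Grm5, read as a check of the labels, averaged 11.07 ± 0.08 in Q111 mGluR5-/- mice and 11.94 ± 0.08 in Q111 mGluR5+/+ mice (SD, n = 3 each). It averaged 11.06 ± 0.12 in Q20 mGluR5-/- mice and 12.00 ± 0.07 in Q20 mGluR5+/+ mice (SD, n = 3 each). The mean difference for mGluR5 loss was -0.91 ± 0.07 (SE, limma adjusted p = 5.81e-06). Striatal projection neuron markers were high in all groups: over the 12 arrays Penk averaged 12.87, Drd2 12.06, Ppp1r1b 11.52 and Drd1 10.97. Replicates 2 and 3 of Q111 mGluR5+/+ stood farthest out, in opposite directions, on a principal component that held 36.5% of the variance.

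Ccl19 was far lower in Q111 than in Q20 mice in both mGluR5 genotypes. It had log2 signals of 7.21, 7.55 and 7.57 in Q111 mGluR5-/- arrays, and of 7.40, 7.15 and 7.22 in Q111 mGluR5+/+ arrays. In Q20 mGluR5-/- arrays it had 9.57, 9.58 and 9.34, and in Q20 mGluR5+/+ arrays 9.38, 9.49 and 9.36. The highest Q111 array was under the lowest Q20 array by 1.77, against a widest spread of 0.42 within an allele. The averaged difference was -2.10 ± 0.08 log2 units (SE), 4.30-fold, the second largest in size among the 16721 genes. It was -2.06 ± 0.11 without mGluR5 and -2.15 ± 0.11 with it. Because these differences chose the gene, they are given as a description with no test.

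The platform carries 5 Ccl19 probe sets, and all of them showed the difference. The set used here, 10504188, has the highest mean. The Q111 minus Q20 difference was -2.10 in it, and -2.57, -2.57, -2.41 and -2.62 in the other sets. The sets 10512322 and 10504159 gave nearly identical values in every array, so they are not independent measurements. The mean of all 5 sets gave -2.45. RefSeq lists 3 Ccl19 pseudogenes on chromosome 4, Ccl19-ps1, Ccl19-ps2 and Ccl19-ps3, with no probe set of their own here. Which copy a Ccl19 probe set reads was not tested.

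**Figure D1:**
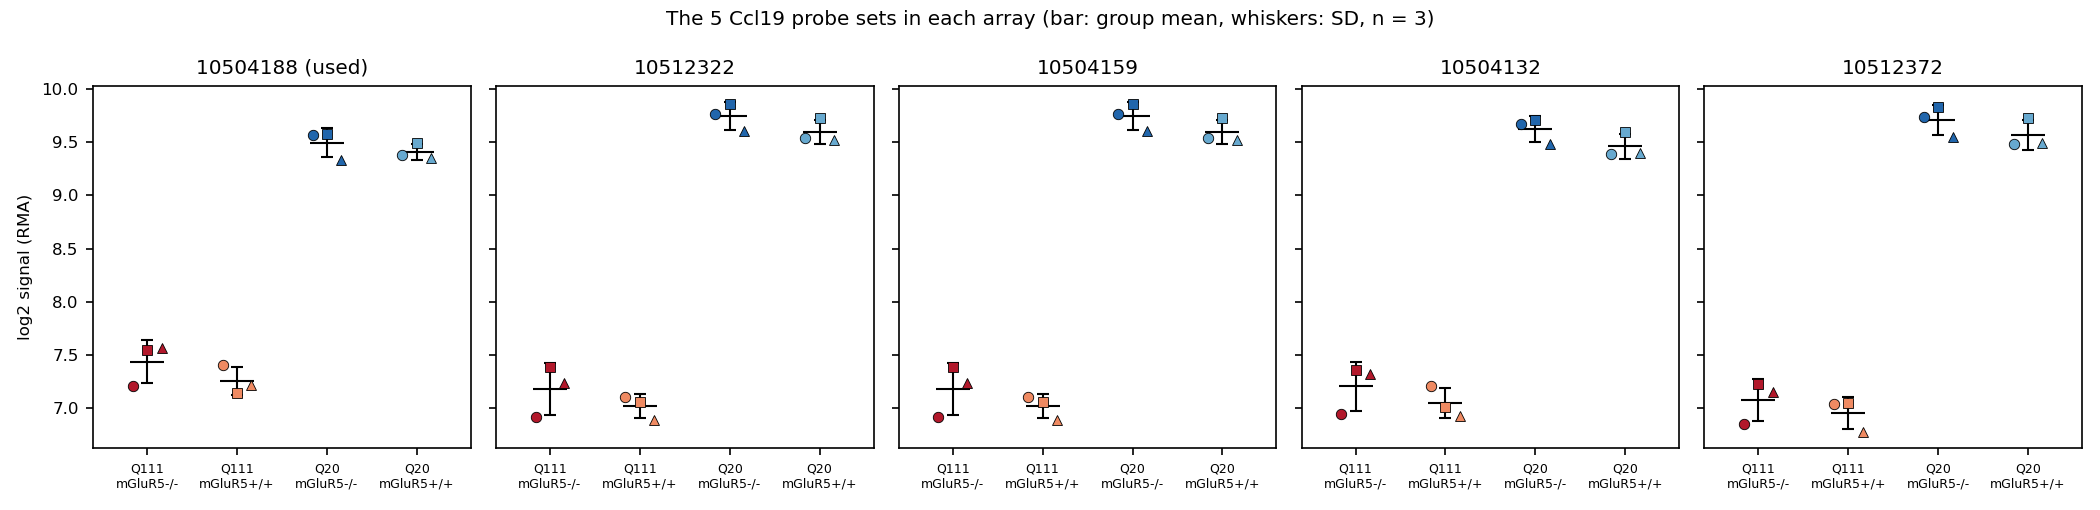
Log2 signal of the 5 Ccl19 probe sets in each array. Points are arrays (symbol by replicate number), bars are group means and whiskers SDs (n = 3); in every set the Q111 arrays sit below the Q20 arrays.

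Ccl19 is made in lymphoid tissue by stromal cells. Of 7 endothelial markers, 7 had negative averaged Q111 differences, 4 of them with an unadjusted limma p below 0.05, against 11.4% of all genes. Their median difference was -0.24, against -0.02 over all genes. The 7 endothelial markers had a mean log2 signal of 7.26 to 7.48 in Q111 mGluR5-/- arrays and of 7.11 to 7.49 in Q111 mGluR5+/+ arrays. The range was 7.54 to 7.65 in Q20 mGluR5-/- arrays and 7.38 to 7.63 in Q20 mGluR5+/+ arrays. None of the 7 was called in the averaged Q111 difference. The 9 markers of lymphatic and fibroblastic stroma lay between 7.19 and 7.40 in Q111 arrays and between 7.25 and 7.38 in Q20 arrays. Of the 8 stromal markers tested, 6 had negative and 2 positive averaged Q111 differences, with a median of -0.06. At an unadjusted limma p below 0.05 there were 0 of these 8. In bulk tissue, fewer cells of a type and less RNA per cell cannot be told apart, and the part of these cells in the Ccl19 difference was not tested.

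Cd72 was the member higher in Q111 mice by the most. It had 8.04, 7.97 and 7.95 in Q111 mGluR5-/- arrays and 8.09, 7.92 and 8.04 in Q111 mGluR5+/+ arrays. It had 6.42, 6.13 and 6.50 in Q20 mGluR5-/- arrays and 6.10, 6.31 and 6.53 in Q20 mGluR5+/+ arrays. No Q111 array overlapped a Q20 array, and the gap was 1.39. The averaged difference was 1.67 ± 0.08 (SE), 3.18-fold, and it was 1.63 ± 0.12 without mGluR5 and 1.71 ± 0.12 with it. The Q20 arrays, at 6.10 to 6.53, lay little above the filter level.

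Levels of B cell markers were described beside those of Cd72. Ms4a1 averaged 5.03, Cd79a 4.64 and Cr2 5.57 over the 12 arrays, all below the filter. Cd79b averaged 6.88, Pax5 6.78, Blk 6.55 and Cd22 6.44, each above the 6.33 of Cd72 in Q20 arrays. The remaining tested marker, Fcer2a, averaged 5.71, below that level. Pax5 is itself a gene of the chromosome 4 stretch described below. The mean of 8 B cell markers without Cd72 was 5.87 to 6.04 in Q111 mGluR5-/- arrays and 5.79 to 6.22 in Q111 mGluR5+/+ arrays. It was 5.80 to 6.01 in Q20 mGluR5-/- arrays and 5.82 to 6.00 in Q20 mGluR5+/+ arrays. The ranges overlapped, and 0 of the 5 tested markers was called, with averaged Q111 differences of 0.07 to 0.18 (limma, 0 at an unadjusted p below 0.05). Microglial markers, 11 in all, lay between 8.25 and 8.39 in Q111 arrays and between 8.28 and 8.56 in Q20 arrays. The part of B cells or microglia in the Cd72 difference was not tested.

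Dctn3 and Rpp25l, which are next to each other in gene order, were both lower in Q111 mice. Dctn3 had 8.88, 8.94 and 9.02 in Q111 mGluR5-/- arrays and 9.07, 8.98 and 8.57 in Q111 mGluR5+/+ arrays. It had 9.75, 9.99 and 9.82 in Q20 mGluR5-/- arrays and 9.66, 9.81 and 9.61 in Q20 mGluR5+/+ arrays. The alleles did not overlap, with a gap of 0.55, and the averaged difference was -0.86 ± 0.09 (SE), 1.82-fold. Replicate 3 of Q111 mGluR5+/+ was the lowest Dctn3 array. Rpp25l had 7.14, 7.34 and 7.45 in Q111 mGluR5-/- arrays and 7.37, 7.49 and 7.28 in Q111 mGluR5+/+ arrays. It had 7.99, 8.29 and 7.90 in Q20 mGluR5-/- arrays and 7.78, 7.92 and 7.74 in Q20 mGluR5+/+ arrays. The gap was 0.25, smaller than the spread of 0.55 within an allele. The averaged Rpp25l difference was -0.59 ± 0.08 (SE), 1.51-fold, with -0.75 ± 0.12 without mGluR5 and -0.44 ± 0.12 with it.

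Fancg was higher in Q111 mice, with the smallest averaged difference of the 5. It had 8.19, 8.21 and 8.21 in Q111 mGluR5-/- arrays and 7.95, 8.04 and 7.95 in Q111 mGluR5+/+ arrays. It had 7.68, 7.67 and 7.53 in Q20 mGluR5-/- arrays and 7.58, 7.41 and 7.37 in Q20 mGluR5+/+ arrays. The gap between alleles was 0.27, smaller than the widest spread of 0.31 within an allele. The averaged difference was 0.55 ± 0.06 (SE), 1.47-fold. Within each allele the mGluR5-/- mean was the higher one, 8.20 ± 0.012 against 7.98 ± 0.05 in Q111 mice and 7.62 ± 0.09 against 7.45 ± 0.11 in Q20 mice (SD, n = 3 each).

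**Figure D2:**
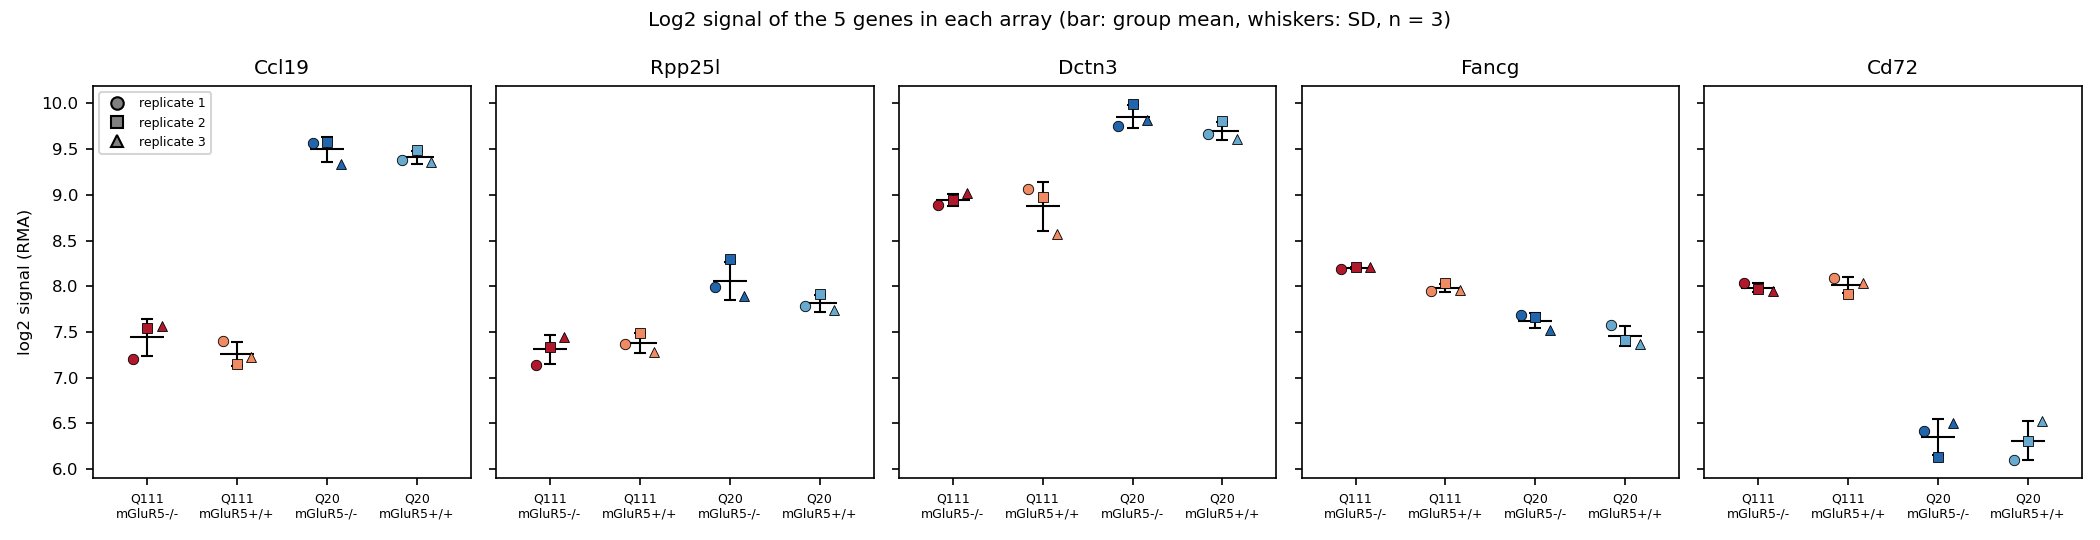
Log2 signal of the 5 genes in each array, with groups on the horizontal axis. Points are arrays, bars group means and whiskers SDs (n = 3); Ccl19, Rpp25l and Dctn3 are lower and Fancg and Cd72 higher in all 6 Q111 arrays.

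A gene was called at a limma p below 0.05 after Benjamini-Hochberg adjustment over the 16721 genes. All 5 members were past this threshold in the averaged Q111 difference, where 1.32% of all genes were (83 higher and 138 lower). All 5 were past it in mice without mGluR5, where 0.885% of all genes were. In mice with mGluR5, all but Rpp25l were past it, against 0.574% of all genes. In that comparison Fancg was no longer past it without replicate 2 or without replicate 3 of Q20 mGluR5+/+, or when only the groups compared were fitted, and Dctn3 was not with an ordinary linear model. Rpp25l was past it there under array weights and under a replicate block. The Q111 and Q20 arrays did not overlap for all 5 members, against 1.21% of all genes. These counts follow from how the genes were chosen, and nothing is read from them.

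Loss of mGluR5 is the comparison that did not choose the genes, and no member was called in it. In Q20 mice 0.299% of all genes were called, in Q111 mice 0.275% and on average 0.293%. The averaged difference was 0.13 ± 0.08 for Ccl19 (95% interval -0.04 to 0.31) and 0.12 ± 0.09 for Dctn3 (-0.07 to 0.30). It was 0.09 ± 0.08 for Rpp25l (-0.09 to 0.26) and 0.00 ± 0.08 for Cd72 (-0.17 to 0.18), with a limma adjusted p of 1 for each of these 4. These intervals leave room for changes of up to 0.31 log2 units.

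Fancg had the smallest p for mGluR5 loss among the 5 genes. Its averaged difference was 0.19 ± 0.06 (SE, 95% interval 0.06 to 0.33), with an unadjusted limma p of 0.00673 and an adjusted p of 0.469. In Q111 mice the 3 mGluR5-/- arrays lay above the 3 mGluR5+/+ arrays, with a difference of 0.22 ± 0.09 (limma adjusted p = 0.901). Of all genes, 7.46% had no overlap between these groups in either direction. In Q20 mice the difference was 0.17 ± 0.09 (limma adjusted p = 0.902). The difference passed the threshold only when arrays were weighted by their fit, at 0.24 (limma adjusted p = 0.0164). Over the 24 alternatives its adjusted p ran from 0.0164 to 0.979.

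The interaction asks whether the Q111 difference depends on mGluR5. It was called for 0.437% of all genes and for none of the 5. The largest was in Rpp25l, -0.31 ± 0.16 (SE, 95% interval -0.66 to 0.04, limma adjusted p = 1). For Ccl19 it was 0.10 ± 0.16, for Cd72 -0.07 ± 0.17, for Dctn3 -0.08 ± 0.17 and for Fancg 0.05 ± 0.12, each with an adjusted p of 1. The smallest unadjusted limma p was that of Rpp25l, 0.0744.

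**Figure D3:**
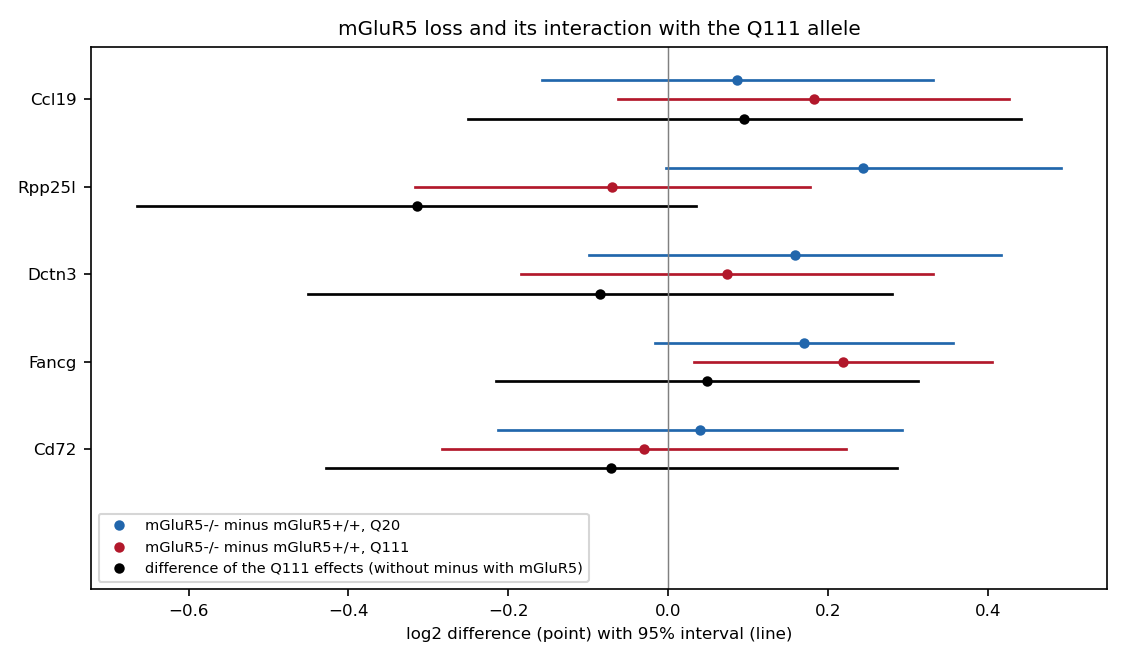
Log2 difference for mGluR5 loss in Q20 mice, in Q111 mice, and the difference of the Q111 effects without minus with mGluR5, for each gene. Points are estimates and lines 95% intervals; the Fancg line in Q111 mice runs from 0.03 to 0.41, and no adjusted p passed the threshold.

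The stretch around the members was described over 77 tested genes, those between the outermost members and 30 on either side. Beyond the 5 members, 4 of 72 were called in the averaged Q111 difference, 3 higher and 1 lower, against 1.32% of all genes. Chmp5, a subunit of the ESCRT-III membrane-remodelling machinery, averaged 9.77 in Q111 and 10.14 in Q20 arrays, a difference of -0.37 ± 0.08 (SE, limma adjusted p = 0.0324). Tesk1, a protein kinase that acts on cofilin, averaged 9.38 in Q111 and 9.09 in Q20 arrays, a rise of 0.29 ± 0.06 (limma adjusted p = 0.0322). Gba2, a non-lysosomal glucosylceramidase, averaged 9.79 in Q111 and 9.51 in Q20 arrays, a rise of 0.28 ± 0.07 (limma adjusted p = 0.0459). Hint2, a mitochondrial protein of the histidine triad family, averaged 7.11 in Q111 and 6.80 in Q20 arrays, a rise of 0.32 ± 0.07 (limma adjusted p = 0.0373). The Q111 and Q20 arrays of Tesk1, Gba2 and Hint2 did not overlap, 3 of 72 against 1.21% of all genes, and those of Chmp5 did. These 4 calls depend on single arrays: their number lay between 0, without replicate 1 of Q20 mGluR5+/+, and 7, without replicate 2 of Q111 mGluR5+/+. They depend on the processing as well: over all 25 alternatives the number ran from 0 to 11.

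The genes directly beside the members had small differences. Galt and Phf24, on either side of Ccl19 in tested gene order, differed by -0.15 ± 0.08 and 0.07 ± 0.06. Vcp and Pigo, beside Fancg, differed by 0.05 ± 0.07 and -0.01 ± 0.06. Cntfr, beside Rpp25l, differed by 0.08 ± 0.07, and Arid3c, beside Dctn3, by -0.08 ± 0.08. Sit1, beside Cd72, differed by -0.04 ± 0.10, while its other neighbour was Tesk1. None of these but Tesk1 was called, with limma adjusted p between 0.515 and 0.962. Of the 12 tested genes between the outermost members, 1 was called, Tesk1. The median averaged difference of the 72 other genes was 0.03, against -0.02 over all tested genes.

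The members with the smallest averaged differences were Fancg at 0.55 and Rpp25l at -0.59. The next genes of the stretch by size were Myorg at -0.46 and Chmp5 at -0.37. Over chromosome 4 as a whole 16 of 1029 tested genes were called, 9 of them in the stretch, against 1.32% of all genes. The 9 include the 5 members, which were chosen by this difference, and the stretch was drawn around them. Without the members 4 of 72 genes of the stretch were called. In the rest of the chromosome 7 of 952 were, or 0.735%. They were Invs, Alad, Ror1, Padi2, Fv1, Nppa and Masp2, of which Invs had the largest difference, -0.91 ± 0.06 (SE, limma adjusted p = 6.17e-07). None of the 77 genes was called for mGluR5 loss in either allele, on average, or in the interaction. At an unadjusted limma p below 0.05 the counts were 4 in Q20, 4 in Q111, 7 on average and 2 for the interaction. Over all genes the shares at that p were 6.02% in Q20, 4.36% in Q111, 5.32% on average and 5.37% for the interaction.

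**Figure D4:**
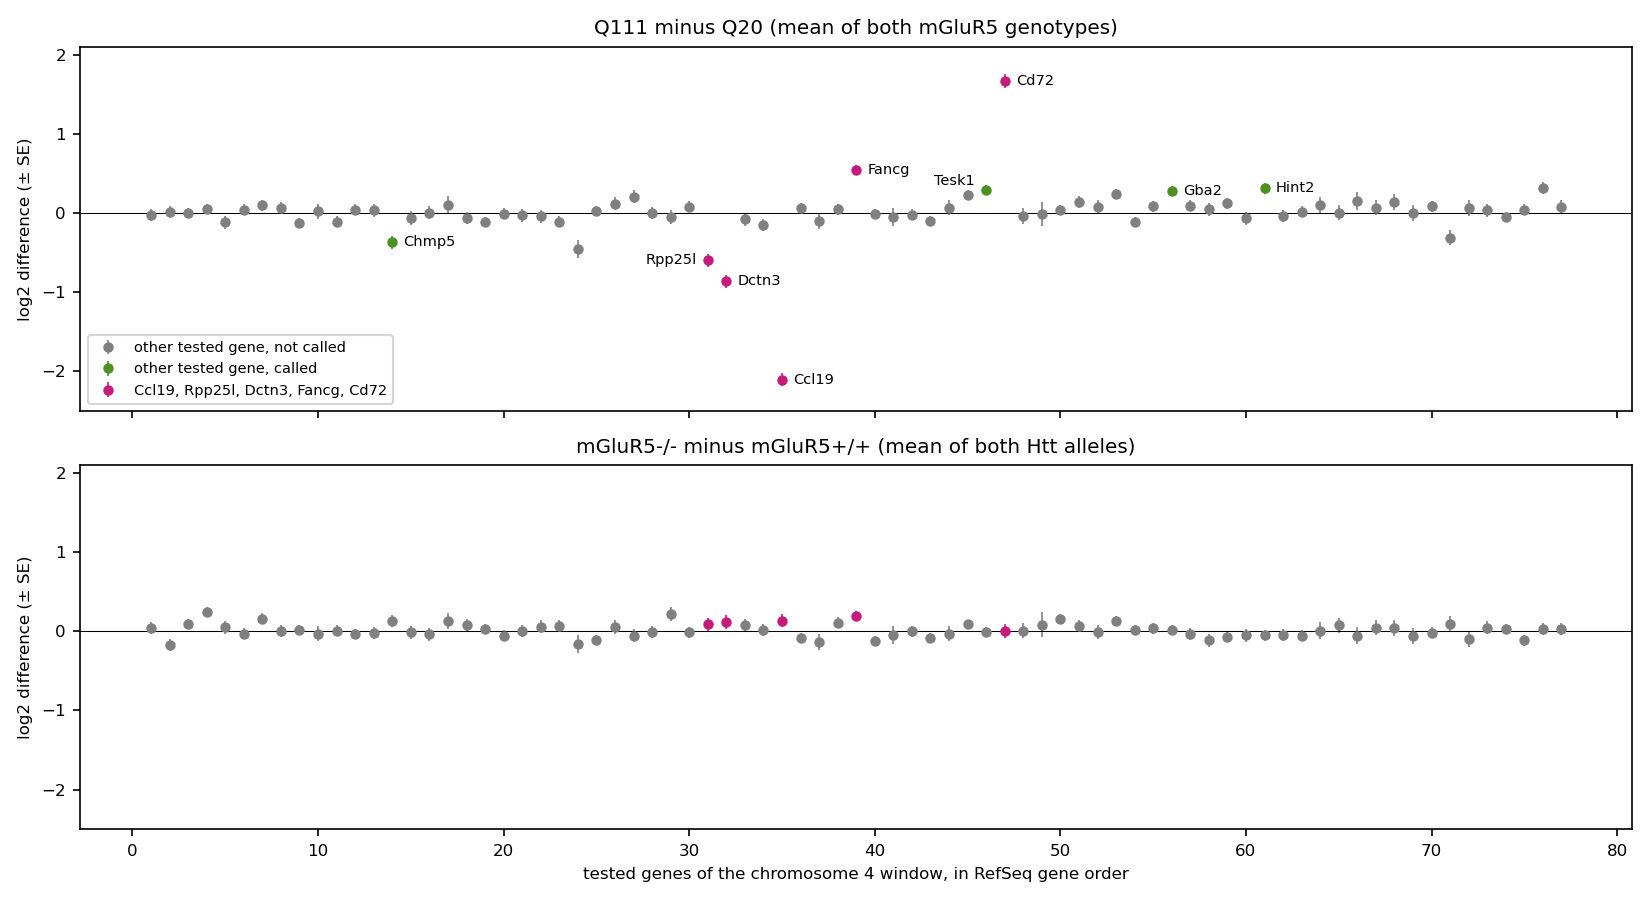
Averaged Q111 minus Q20 log2 difference (above) and averaged mGluR5-/- minus mGluR5+/+ difference (below) of the 77 tested genes in RefSeq gene order, with standard errors as bars. Members and called genes are named in the upper panel; between them most genes lie near 0, and no gene is called in the lower panel.

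No further tested gene of the members' pathways was called. Ccl21a, Ccl21b, Ccl21c, Lyn, Actr1b and Actr10 had no probe set with their symbol alone and were not tested. Cxcr5, Btk, Cd79a, Brip1 and Palb2 were below the filter. In each of 5 lists limma called 0 in all 7 comparisons, against 0.275% to 1.32% of all genes. Under the alternatives the count over the lists reached 6 for the averaged Q111 difference, and the count over all genes reached 1900. For the averaged Q111 difference 1 of 6 further genes of the CCR7 axis had an unadjusted p below 0.05, as did 2 of 10 CD72 partners and 1 of 9 dynactin subunits. For the same difference 2 of 15 Fanconi genes and 4 of 10 RNase P and RNase MRP proteins had one, against 11.4% of all genes. Ccr7, the Ccl19 receptor, differed by -0.05 ± 0.10, and Ackr4, its scavenging receptor, by 0.07 ± 0.10. Of the further dynactin genes, 8 of 9 had negative averaged Q111 differences, with a median of -0.06 against -0.02 over all genes. The medians of the other lists lay between -0.03 and 0.03.

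For mGluR5 loss averaged over the Htt alleles, the genes with the smallest p in each list were as follows. In the CCR7 axis Cxcl13, a B cell chemokine, differed by 0.36 ± 0.11 (limma adjusted p = 0.448) and Ltb, a lymphotoxin subunit, by 0.10 ± 0.07. Taken by allele, no further gene of this list rose by more than 0.03 in Q20 mice. In Q111 mice the largest rise in the list was 0.75, and it was not called. The largest interaction among these 6 genes was 0.77, and limma called 0 of 6, with 1 at an unadjusted p below 0.05. A difference between the alleles is therefore not established. Among CD72 partners Ptpn6, the phosphatase CD72 recruits, differed by 0.16 ± 0.07 (limma adjusted p = 0.939), Inpp5d by 0.14 ± 0.07 and Blnk by -0.07 ± 0.06. Among dynactin genes Capza2 differed by 0.09 ± 0.07 and Dctn6 by 0.06 ± 0.07. In the Fanconi list Usp1, which removes ubiquitin from Fancd2, differed by 0.36 ± 0.16 (limma adjusted p = 0.902) and Wdr48, its partner, by 0.09 ± 0.07. Among RNase P proteins Rpp21 differed by 0.15 ± 0.08, Pop7 by 0.10 ± 0.07 and Rpp38 by 0.13 ± 0.09. None of these passed the test.

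**Figure D5:**
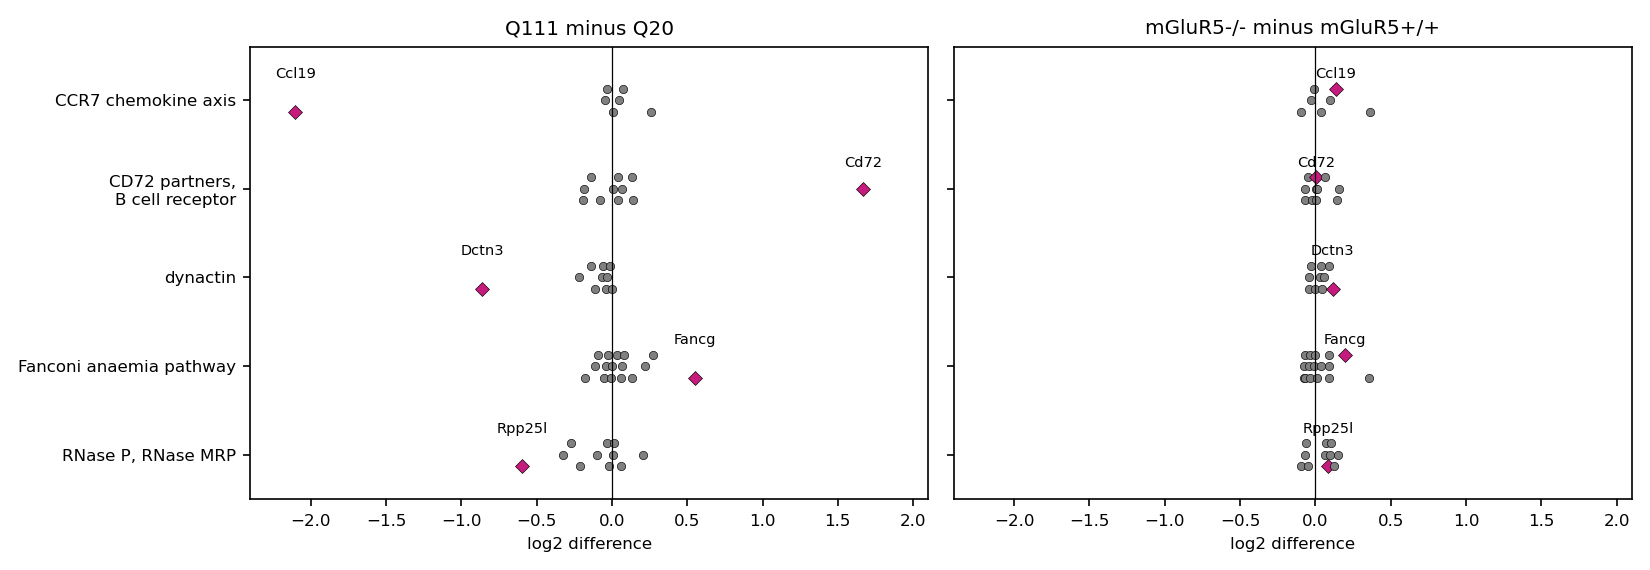
Averaged log2 differences of the tested genes of 5 pathway lists, Q111 minus Q20 (left) and mGluR5-/- minus mGluR5+/+ (right). Diamonds are Ccl19, Cd72, Dctn3, Fancg and Rpp25l and grey points the other genes of the list; in the left panel the diamonds, whose genes were chosen by this difference, run from -2.10 to 1.67, and in the right panel from 0.00 to 0.19.

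Likeness of other genes to the members was the root mean square difference between log2 values centred on their mean, as a description over 12 arrays that share the 2 alleles. For Ccl19, whose own deviations had a root mean square of 1.06, the closest were Cdhr1 on chromosome 14 at 0.23, Rpl26 on chromosome 11 at 0.29, H60b at 0.45, Ackr1 at 0.51 and Invs, elsewhere on chromosome 4, at 0.62. With the sign turned, Cd72 was the closest to Ccl19 at 0.27, followed by Nat8f4 at 0.52. For Cd72 with the sign turned, Cdhr1 at 0.14 and Rpl26 at 0.16 were closer than Ccl19. Cdhr1 averaged 6.95 in Q111 and 8.75 in Q20 arrays, and Rpl26 averaged 7.38 in Q111 and 9.01 in Q20 arrays. The closest to Dctn3 was Car12 at 0.12, to Fancg with the sign turned Aim2 at 0.11 and to Rpp25l Spink8 at 0.08. Spink8 averaged 5.31 in Q111 and 5.88 in Q20 arrays, below or near the filter level of 5.69 to 5.94.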

How the data were processed

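The authors deposited log2 signals of 12 Affymetrix whole-transcript arrays, made with RMA in Partek per the submitters' processing notes, which give no versions. The series design names Partek Genomics Suite 6.5, an ANOVA p below 0.05 and a 1.5-fold change. Of 35556 probe sets 21789 carried 1 gene symbol, 1621 several and 12146 none, and 91 had no RefSeq match. Each gene was read from its set with the highest mean and tested where that set exceeded the 25th percentile in at least 3 arrays. limma 3.58.1 in R 4.3.3 fitted 1 mean per group over all 12 arrays, with residual and prior degrees of freedom of 8 and 6.88. The method was tested on simulated data for averaged mGluR5 loss only. The simulated noise was independent between genes and arrays, so variation shared between arrays was not covered. Plots used matplotlib 3.10.9 in Python 3.11.15. The named genes were the members, called genes and neighbours of the stretch, the 3 smallest p for averaged mGluR5 loss and called genes of each list, and the 5 likest genes per direction, of which only the closest are printed. The members and lists were chosen with earlier results of these data known. Alternatives covered the model, filter, normalization, probe set choice, array weights, a covariate, a replicate block and leaving out each array. Arrays hold no counts, and their number limits the precision.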

Additional observations from a re-analysis of the deposited data

Results flagged for a closer look

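Probe sets whose annotation lists 7 symbols each, with a Ccl21 gene among them, were assigned to no gene and entered no comparison. In replicate 2 of Q111 mGluR5+/+ the sets 10504127, 10504154 and 10504183 each read 8.5645 and the set 10512377 read 8.5819. In the other 11 arrays the first 3 sets lay between 7.16 and 7.57 and the last between 7.10 and 7.48, with the Q20 arrays among them. The first 3 sets gave the same values in every array and are not independent. The array is also at an end of the first principal component, at 19.7. Replicate 2 of Q20 mGluR5-/- was at 18.7 there, and it read 7.36 in the first 3 sets and 7.29 in the last. The cause of the high signal was not tested.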

How the results depend on the processing

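The averaged Q111 differences of the 5 members, which chose them and so are a description with no test, ranged over the 24 alternatives from -2.45 to -2.05 for Ccl19, -0.91 to -0.76 for Dctn3, 0.53 to 0.58 for Fancg, -0.64 to -0.53 for Rpp25l and 1.62 to 1.72 for Cd72. The numbers of called genes moved more. In the order Q111 with mGluR5, Q111 without it, Q111 averaged, mGluR5 loss in Q20, in Q111, averaged, and interaction, they were 96, 148, 221, 50, 46, 49 and 73. An ordinary linear model gave 35, 91, 123, 19, 23, 23 and 19, array weights 968, 942, 1900, 384, 346, 376 and 326, and the interquartile range as a covariate 266, 353, 488, 213, 150, 170 and 153. The weights were estimated gene by gene because the restricted likelihood did not converge. The authors' criteria gave 51 for Q111 averaged, 17 for mGluR5 loss averaged and 165 for the interaction. An intensity trend gave 84 and quantile normalization 76 for mGluR5 loss in Q20, fitting only the groups compared 47 for Q111 with mGluR5, and all probe sets 207, 280 and 452 for the 3 Q111 comparisons. Leaving out 1 array gave 44 to 128, 74 to 232, 119 to 511, 25 to 97, 28 to 52, 29 to 60 and 34 to 69, each highest without replicate 2 of Q111 mGluR5+/+. The cause of these moves was not tested.

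Small differences that were not called changed sign. With array weights Cd72 gave -0.0018 for mGluR5 loss in Q20 and -0.0359 averaged, Ccl19 -0.0164 and Dctn3 -0.0863 for loss in Q111, and the Ccl19 interaction was -0.1513. Leaving out 1 array gave, for Cd72, -0.066 to 0.1494 in Q20, -0.079 to 0.0068 in Q111, -0.0483 to 0.0594 averaged and -0.18 to 0.0354 for the interaction. It gave -0.0763 to 0.1716 for Dctn3 and -0.1388 to 0.0131 for Rpp25l in Q111, and interactions of -0.235 to 0.0129 for Dctn3 and -0.0136 to 0.092 for Fancg.

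With the replicate number as a block, 204, 343, 487, 129, 103 and 79 genes were called in the first 6 comparisons. Deviations of same-numbered arrays correlated from -0.144 to 0.567, over 0.1 in 11 of 18 pairs, and 9 of 12 arrays correlated best with their own number. Deviations of arrays with different numbers correlated from -0.555 to 0.449, over 0.1 in 7 of 36 pairs. The numbers were not taken as pairs. Signals near the filter level, as Cd72 in Q20 arrays, limit the size of a difference.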
